A study of Rattus with 12 samples.

Results

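Vcam1, Icam1, Birc3, Nfkbia, Tnfaip3, Tnfaip2, Nfkb2, Relb and Traf1 encode adhesion molecules and feedback components of the transcription factor NF-κB, and their transcripts were followed in rat neuron and glial co-cultures exposed to the opioid fentanyl. The genes were taken from the count table by their symbols. Of the 9 symbols, 7 are among the 17337 genes listed, and each of these 7 passed the filter on low counts, while Tnfaip3 and Relb are not listed under these names or an older symbol and were not analysed here. The 9 genes were chosen with values from these same cultures known, and Vcam1, Birc3 and Nfkbia are also among the genes the study selected on them. Levels and differences of the 7 genes are therefore given as a description. Where the fit across all genes called one of them, the call is stated beside the share of all genes called, and it is not independent evidence, since the choice of genes used the same values.

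NF-κB is held in the cytoplasm of resting cells by inhibitor proteins, and receptors for tumor necrosis factor, interleukin-1 and microbial products release it to the nucleus. Its targets include the genes of its own inhibitors, so that an activated cell refills what it has used up, and genes of adhesion molecules, chemokines and survival factors. In the brain this response is known from endothelial cells, microglia and reactive astrocytes.

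The cultures were of primary Sprague Dawley rat cortical neurons, astrocytes and oligodendrocyte precursor cells from commercial sources, and each was left untreated (medium alone) or exposed to fentanyl for 4 days, at 0.01 μM in the low dose and 10 μM in the high dose condition. There were 4 cultures per condition. The untreated ones carried the letters A, G, M and P. Low dose cultures were B, H, N and Q, and high dose cultures were C, I, O and R. The study calls the cultures biological replicates in its estimate of cell composition, and no source used here says whether those of a condition came from separate animals. The spread and the p-values measure only differences between these cultures, which may be technical in part. Total counts ranged from 12059872 to 17023909 in the untreated, 12907388 to 16512387 in the low dose and 15102785 to 24813893 in the high dose condition. CPM are read counts relative to the library total with TMM scaling (edgeR), and they compare cultures for one gene, not one gene with another.

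Untreated culture G stood apart from the other 11 cultures. Its neuron marker score (the mean log2(CPM + 1) of 14 markers) was 4.40, against 7.68 to 8.35 elsewhere, and its fibroblast and mural score (7 markers kept of 10, without Lum, Rgs5 and Des) was 6.67. Of the fibroblast and mural markers, Dcn, Lum, Col3a1, Pdgfrb and Cspg4 had more counts in G than in any other culture (Dcn 1053 against 9 to 33, Lum 537 against 2 to 7). Cspg4 (1163 against 161 to 854) was also a marker of oligodendrocyte precursors. Col1a1, Col1a2, Acta2, Rgs5 and Des were within the range of the others. The microglia score of G was 5.75, against 2.14 to 4.90 in the other untreated cultures, and its endothelial score (5 markers kept of 10) of 2.69 was the highest of the 12. The endothelial markers kept in the score were Pecam1, Flt1, Kdr, Vwf and Esam. Cdh5, a cadherin of endothelial junctions that was not kept, had 439 counts in G and 0 to 8 elsewhere. The endothelial markers Flt1 (237 against 1 to 35), Kdr (196 against 23 to 88) and Emcn (10 against 0 to 3) also had their most counts in G. Pecam1, Cldn5, Vwf and Esam in G were within the range of the others, and Tek was below it (4 against 5 to 15). The endothelial regulator Erg had 3 counts or fewer in every culture. The part of these cells in the levels of G was not tested. G was also the highest of the 12 cultures for 6 of the 7 genes described here, where 27.7% of the 12271 genes tested had their highest level in G. Low dose culture N had a fibroblast and mural score of 6.59, against 3.11 to 3.34 in the other low dose cultures. RNA of mixed cultures cannot separate fewer cells of a type from less RNA per cell. Differences are also given within 4 sets of consecutive letters, although no source names the letters as a pairing. They are called by their untreated culture: set A holds cultures A to C, set G holds G to I, set M holds M to O, and set P holds P to R.

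**Figure D1:**
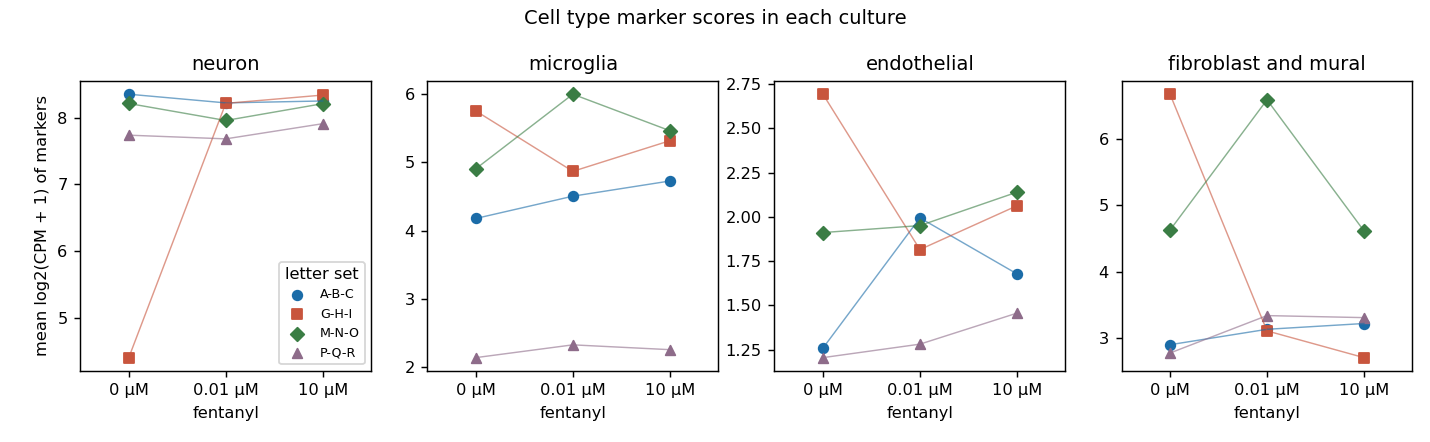
Cell type marker scores, the mean log2(CPM + 1) of the kept markers, are plotted for each culture against fentanyl concentration, for neurons, microglia, endothelial cells and fibroblast and mural cells, with 1 symbol per letter set and lines joining consecutive letters as a guide. Culture G (set G, 0 μM) is lowest for neurons at 4.40 and highest for fibroblast and mural markers at 6.67, and the cultures of set P have the lowest microglia scores, 2.14 to 2.33.

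Between the fentanyl doses, neither of which involves culture G, Vcam1, Birc3, Nfkbia and Tnfaip2 were higher in each high dose culture than in each low dose culture. These 4 of the 7 genes compare with 0.668% of all genes tested, and since the genes were chosen with these values known, the count is a description. With all 12 cultures in one edgeR model that held 1 factor for unwanted variation, log2 fold changes were 1.39 (SE 0.26) for Birc3, 0.91 (SE 0.38) for Vcam1, 0.91 (SE 0.21) for Tnfaip2 and 0.65 (SE 0.14) for Nfkbia. Culture G enters this model through the factor and the estimate of spread. With G left out, the SE was 0.28 for Birc3, 0.18 for Vcam1, 0.21 for Tnfaip2 and 0.13 for Nfkbia. Icam1, Nfkb2 and Traf1 overlapped between the doses. The median log2 fold change of the 7 genes was 0.65, against -0.01 over all genes tested.

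Vcam1 encodes the cell surface ligand of the integrin formed by the Itga4 and Itgb1 products, through which leukocytes attach to activated endothelium. It was at 36.8 CPM in H, 40.4 in Q, 42.7 in N and 71.0 in B at the low dose. At the high dose it was at 75.6 CPM in R, 79.1 in O, 95.7 in I and 121.4 in C. The lowest high dose culture thus lay just above the highest low dose culture, and B and C, of one letter set, were each the highest of their dose. The means were 47.7 ± 15.7 CPM (SD, n = 4) and 93.0 ± 20.9 CPM, a ratio of 1.95. Within the letter sets, the high dose culture was higher by 0.77 in set A, 1.35 in set G, 0.87 in set M and 0.89 in set P on the log2(CPM + 1) scale.

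Birc3 encodes an inhibitor of apoptosis protein, a ubiquitin ligase that binds TRAF proteins at receptors of the tumor necrosis factor family. At the low dose it was at 2.22 CPM in H, 3.62 in B, 3.71 in Q and 5.48 in N, from 36 to 84 counts. The high dose cultures held 6.93 CPM in C, 10.1 in I, 10.7 in R and 11.7 in O, from 117 to 259 counts. The ratio of the means, 9.86 ± 2.07 CPM (SD, n = 4) to 3.76 ± 1.34 CPM, was 2.62, the highest among the 7 genes. The difference was 0.78 in set A, 1.78 in set G, 0.97 in set M and 1.31 in set P. Birc3 lies next to its paralog Birc2 in the RefSeq annotation, and whether any reads matched both genes was not examined.

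Nfkbia encodes the inhibitor IκBα, which binds NF-κB and is made anew when the factor is active. The low dose cultures were at 26.5 CPM in Q, 26.7 in H, 33.0 in B and 39.1 in N, and the high dose cultures at 41.1 in R, 46.1 in C, 52.7 in I and 59.8 in O. N at the low dose and R at the high dose were the closest pair between the doses. Means were 31.3 ± 6.004 CPM (SD, n = 4) and 49.95 ± 8.12 CPM, a ratio of 1.59, and the differences within sets A, G, M and P were 0.47, 0.96, 0.60 and 0.62.

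Tnfaip2 encodes a cytoplasmic protein first found as a product of tumor necrosis factor treatment. It was at 16.4 CPM in Q, 22.2 in H, 29.2 in B and 32.2 in N at the low dose. At the high dose the values were 36.5 CPM in C, 40.4 in R, 56.8 in O and 58.6 in I. The means of 25.005 ± 7.10 CPM (SD, n = 4) and 48.1 ± 11.3 CPM gave a ratio of 1.92. The difference was smallest in set A, at 0.31, and was 1.36 in set G, 0.80 in set M and 1.25 in set P.

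Nfkb2 encodes p100, the precursor of the p52 subunit, which acts with RelB in the slower, alternative branch of the pathway. The low dose cultures Q, H, B and N were at 16.7, 18.9, 20.5 and 35.5 CPM, and the high dose cultures C, R, I and O at 22.6, 26.1, 26.4 and 37.8 CPM. Low dose culture N was the one above any high dose culture, and Nfkb2 was higher at the high dose in each letter set, by 0.13, 0.46, 0.09 and 0.61 in sets A, G, M and P. Vcam1, Birc3, Nfkbia, Tnfaip2 and Nfkb2 were thus higher in all 4 sets, 5 of the 7 genes beside 11.7% of all genes. The log2 fold change was 0.31 (SE 0.14). Without N, 5 of the 7 genes had no overlap between the doses, Nfkb2 being the addition, beside 2.17% of all genes. The same 4 genes as with all cultures had none without B (2.62% of all genes), without C (2.19%) or without set G (1.84%).

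Icam1 encodes an adhesion molecule bound by the leukocyte integrins of the Itgb2 product. It was at 49.2 CPM in H, 53.6 in B, 67.3 in Q and 113.9 in N at the low dose, and at 66.2 CPM in C, 69.1 in I, 75.2 in R and 108.6 in O at the high dose. N was the highest of these 8 cultures, and set M was the set in which Icam1 was lower at the high dose (-0.07), against 0.30 in set A, 0.48 in set G and 0.16 in set P. Its log2 fold change was 0.18 (SE 0.17). N also had the highest microglia score (5.99) of the 12 cultures. The part of these other cells in the Icam1 and Nfkb2 levels was not tested.

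Traf1, an adaptor at receptors of the tumor necrosis factor family, was close to the limit of these data, with 9 to 39 counts per culture. It was at 0.65 to 1.23 CPM at the low dose and at 0.50 to 1.61 CPM at the high dose, and high dose cultures I and R were at the opposite ends. The 39 counts in R have a 95% exact Poisson interval of 27.7 to 53.3, and the 10 counts in I one of 4.795 to 18.4, which cover counting error only. With these counts and this spread between cultures, no difference between the doses was detected (log2 fold change 0.27, SE 0.46).

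**Figure D2:**
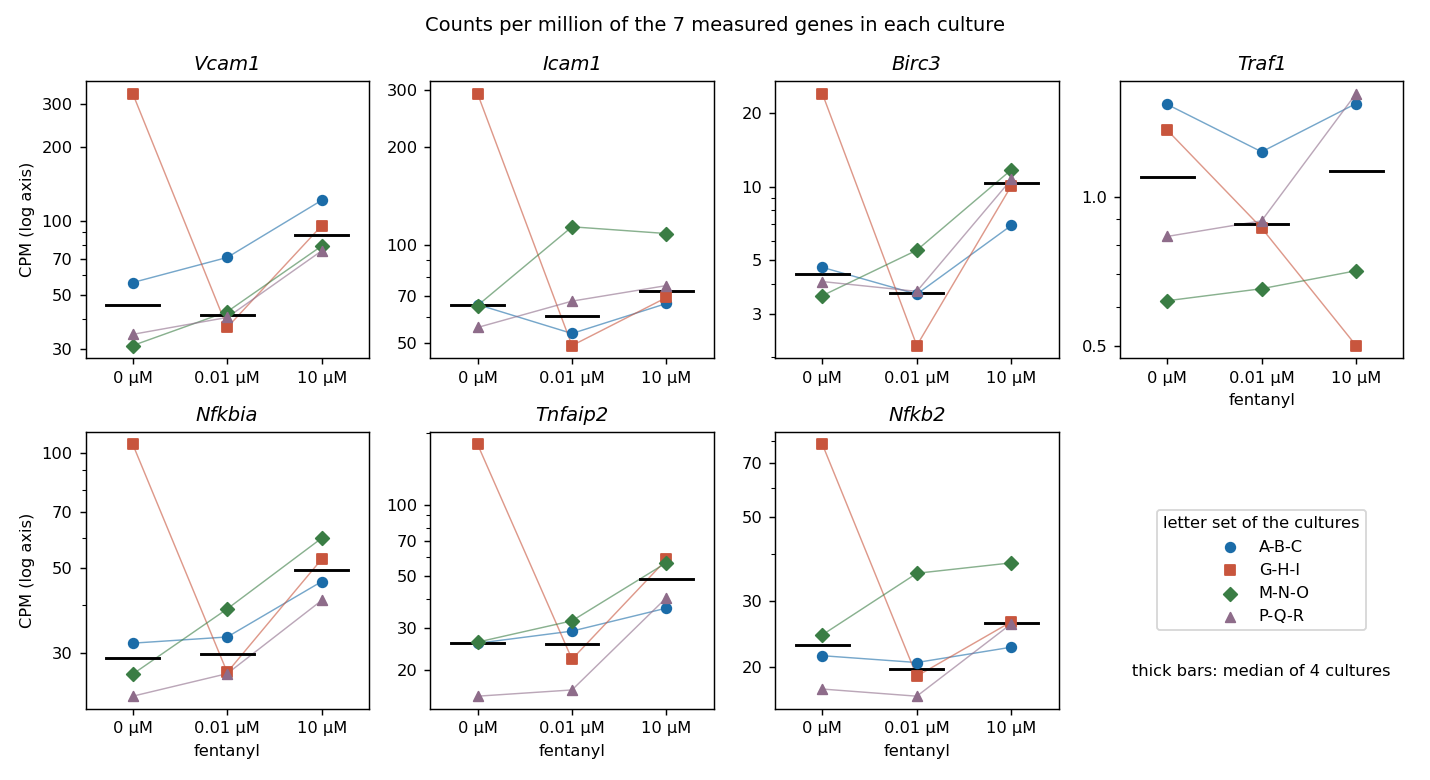
CPM of the 7 genes are plotted on log axes for each of the 12 cultures against fentanyl concentration, with 1 symbol per letter set, lines joining consecutive letters as a guide and a thick bar at the median of the 4 cultures. For Vcam1, Birc3, Nfkbia and Tnfaip2 the 5 highest cultures are G and the 4 high dose cultures, whereas in Icam1 and Nfkb2 the low dose culture N lies among the highest.

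Marker scores of the cell types were set beside the difference between the doses, as high dose minus low dose in sets A, G, M and P. The neuron score (0.03, 0.12, 0.25 and 0.23) and the oligodendrocyte precursor score (0.19, 0.23, 0.28 and 0.10) were higher at the high dose in each set. So were Vcam1, Birc3, Nfkbia, Tnfaip2 and Nfkb2, beside 11.7% of all genes. The microglia score differed by 0.22, 0.45, -0.53 and -0.07. Astrocyte scores differed by 0.04, -0.27, -0.34 and -0.41, and oligodendrocyte scores by -0.29, -0.30, 0.81 and -0.28. For fibroblast and mural markers the values were 0.09, -0.40, -1.97 and -0.03, where set M holds the high score of N. Endothelial scores differed by -0.32, 0.25, 0.19 and 0.18. The part of any of these cell types in the difference between the doses was not tested.

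The thresholds of the study were used, an absolute log2 fold change over 0.5 and an adjusted p below 0.05 (Benjamini-Hochberg). With them, edgeR's quasi-likelihood fit called 0 of the 7 in high dose vs. low dose, where 0% of all genes were called. The smallest adjusted p of this test was 0.9999. The study itself, using RUVseq and edgeR, reported genes past these thresholds in each comparison, so the 0% belongs to the fit used here. At an unadjusted p under 0.05 this fit picked 5 of the 7, Icam1 and Traf1 being left out. All 5 were higher at the high dose, where 1.17% of all genes were picked and 0.579% in that direction. All 7 fold changes were above 0, as were 47.6% of all genes. DESeq2 called Birc3, the 1 gene it called of 12271 (0.00815%). With 4 factors in place of 1, Vcam1, Birc3, Nfkbia and Tnfaip2 were called, as were 0.921% of all genes, and with a block by letter sets without culture G only Vcam1 was, where 0.113% of all genes were. The signs of the 7 fold changes were the same in each alternative fitted for this comparison, from 0.72 to 1.21 for Vcam1, 1.22 to 1.52 for Birc3, 0.60 to 0.72 for Nfkbia and 0.78 to 1.07 for Tnfaip2.

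**Figure D3:**
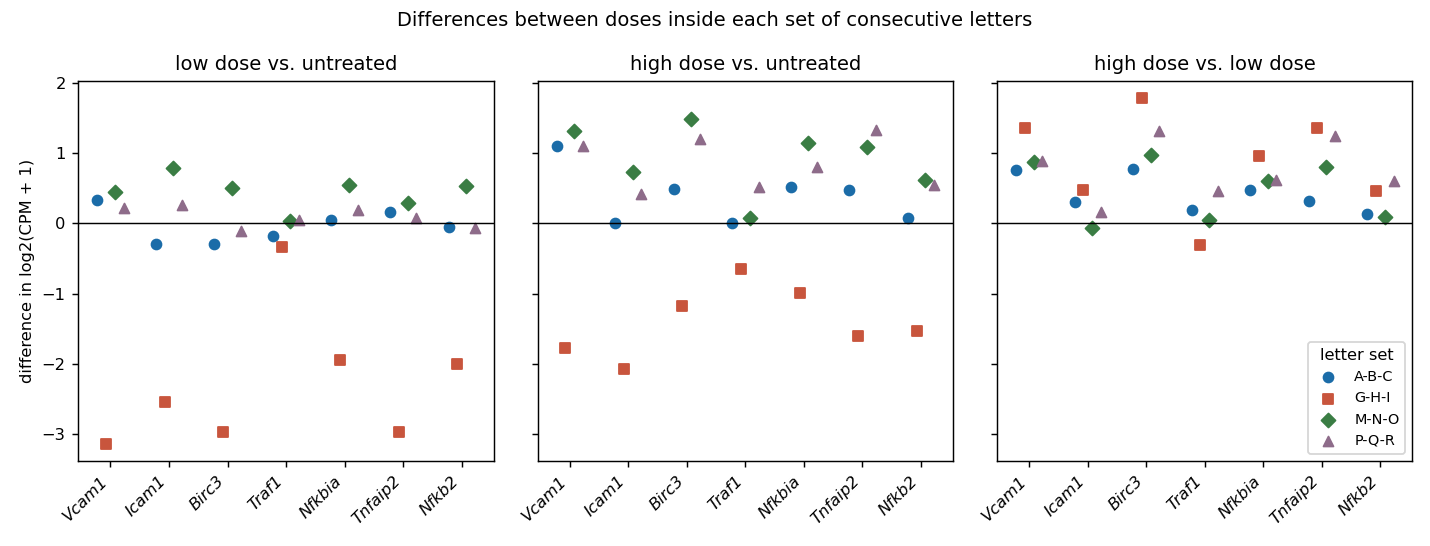
Differences in log2(CPM + 1) of the 7 genes between doses are plotted inside each letter set, in a panel per comparison with 1 symbol per set. In high dose vs. low dose, the sets lie above 0 for Vcam1, Birc3, Nfkbia, Tnfaip2 and Nfkb2, while in both comparisons with untreated cultures set G lies lowest for each of the 7 genes.

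Against untreated cultures, the high dose values depended on culture G. Vcam1 was at 31.1 CPM in M, 34.5 in P and 56.1 in A, and at 330.5 CPM in G. Each high dose culture (75.6 to 121.4 CPM) was above the first 3 and below G. The same order held for Birc3, with 3.57 CPM in M, 4.07 in P, 4.66 in A and 24.1 in G, for Nfkbia, with 23.1 in P, 26.4 in M, 31.8 in A and 105.3 in G, and for Tnfaip2, with 15.5 in P, 25.9 in A, 26.2 in M and 180.1 in G. G held 8.15 times the mean of the other 3 untreated cultures for Vcam1, 7.99 times for Tnfaip2, 5.88 times for Birc3 and 3.88 times for Nfkbia.

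Icam1 was at 55.9 CPM in P, 65.3 in M, 65.7 in A and 292.4 in G. The first 3 lay below the lowest high dose value of 66.2 CPM in C by a narrow margin. Nfkb2 was at 17.5 CPM in P, 21.4 in A, 24.3 in M and 78.3 in G and overlapped the high dose cultures also without G. Traf1 was at 0.62 to 1.53 CPM and did not share the high level in G, which had 1.36 CPM.

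With G, none of the 7 genes was higher in each high dose culture than in each untreated culture, where 0.359% of all genes tested were, and none was higher in all 4 sets, where 5.22% were. Without G, Vcam1, Icam1, Birc3, Nfkbia and Tnfaip2 were, 5 of 7 beside 1.17% of all genes. The high dose mean was 2.29 times the mean of the 3 untreated cultures for Vcam1, 2.41 times for Birc3, 2.13 times for Tnfaip2, 1.84 times for Nfkbia, 1.34 times for Nfkb2 and 1.28 times for Icam1. With G included, the ratios were 0.82 for Vcam1, 1.08 for Birc3, 0.78 for Tnfaip2, 1.07 for Nfkbia, 0.80 for Nfkb2 and 0.67 for Icam1. Within the letter sets, Vcam1 was higher at the high dose by 1.0999 in set A, 1.32 in set M and 1.11 in set P, and the difference in set G was -1.78. For Birc3 the differences were 0.49, 1.48, 1.21 and -1.18 in the same order of sets, and for Nfkbia 0.52, 1.15, 0.81 and -0.98.

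In the edgeR model with 1 factor the log2 fold change in high dose vs. untreated was 0.98 (SE 0.27) for Birc3, 0.82 (SE 0.40) for Vcam1, 0.79 (SE 0.21) for Tnfaip2, 0.67 (SE 0.14) for Nfkbia, 0.26 (SE 0.14) for Nfkb2, 0.14 (SE 0.18) for Icam1 and -0.00 (SE 0.47) for Traf1, so that 6 of the 7 were above 0, beside 50.8% of all genes. The quasi-likelihood test called 0 of the 7, beside 0% of all genes, and an unadjusted p under 0.05 was reached by Birc3, Nfkbia and Tnfaip2, beside 1.19% of all genes. DESeq2 (0.0244% of all genes called) and the likelihood ratio test of edgeR (0.0163%) also called 0 of the 7. Without any factor, the log2 fold change was -0.28 for Vcam1, -0.37 for Tnfaip2, -0.33 for Nfkb2 and -0.59 for Icam1, and it was 0.11 for Birc3 and 0.10 for Nfkbia. With a block by letter sets and without G, the values were 1.32 for Birc3, 1.26 for Vcam1, 1.08 for Tnfaip2 and 0.89 for Nfkbia, and Vcam1 and Nfkbia were called, beside 0.122% of all genes. The same pair was called with 4 factors, beside 0.318% of all genes.

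**Figure D4:**
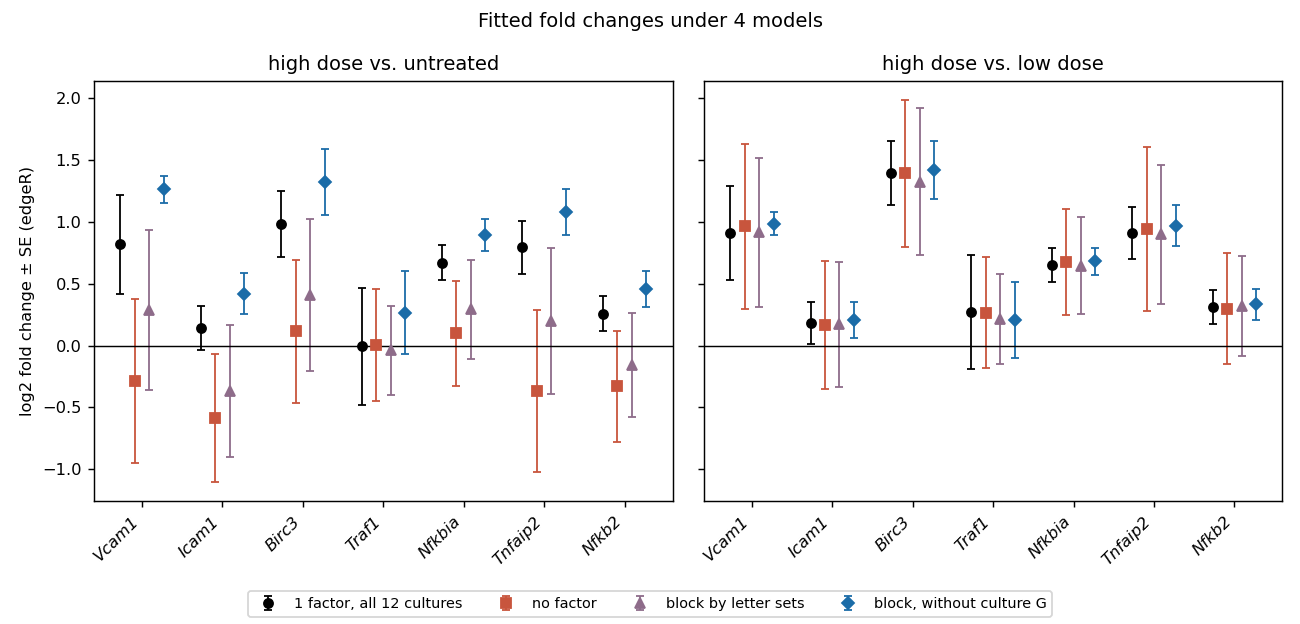
Fitted log2 fold changes with their SE are plotted for the 7 genes under 4 edgeR models, for high dose vs. untreated (left) and high dose vs. low dose (right). On the left the models spread from -0.28 to 1.26 for Vcam1, and on the right each model gives Vcam1 a value between 0.91 and 0.98.

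At the low dose each of the 7 genes overlapped the untreated cultures: 0 were higher in each low dose culture than in each untreated one (0.196% of all genes), and 0 when G was left out (0.627%). None was higher in all 4 sets (4.06% of all genes), and 1 of the 7 had a log2 fold change above 0 (53.4%). Of the log2 fold changes, Nfkbia had 0.02 (SE 0.14), Icam1 -0.04 (SE 0.18), Nfkb2 -0.05 (SE 0.14), Vcam1 -0.09 (SE 0.40), Tnfaip2 -0.12 (SE 0.22), Traf1 -0.27 (SE 0.49) and Birc3 -0.41 (SE 0.27). The quasi-likelihood test of edgeR called 0 of the 7, beside 0% of all genes, with 0 at an unadjusted p under 0.05 (0.742% of all genes), and DESeq2 called 0 as well. Against the 3 untreated cultures without G, the low dose mean was 1.18 times as high for Vcam1, 1.16 times for Nfkbia, 1.14 times for Icam1, 1.11 times for Tnfaip2, 1.09 times for Nfkb2 and 0.92 times for Birc3 and Traf1. Without G, the order of the means was thus untreated, low dose, high dose for Vcam1, Nfkbia, Tnfaip2, Nfkb2 and Icam1. Untreated and low dose cultures overlapped for each of these genes, and low and high dose cultures also for Nfkb2 and Icam1. For Nfkbia, Tnfaip2, Nfkb2 and Icam1, N was the highest low dose culture, at 113.9 CPM for Icam1 and 35.5 for Nfkb2. The other low dose cultures were at 49.2 to 67.3 and 16.7 to 20.5 CPM, and the untreated means without G were 62.3 and 21.1 CPM. The order was not examined without N. All 3 comparisons share cultures, and their values are not independent of each other.

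The other genes of the pathway were taken from 6 lists written from general knowledge, with earlier results of a few of their genes known. Of the 110 genes, 92 could be tested in the same model. None of the 92 was called by edgeR's quasi-likelihood test in any of the 3 comparisons. An unadjusted p under 0.05 was reached by 1 of them at the low dose (0.742% of all genes) and 11 at the high dose (1.19%) against untreated cultures. Between the doses, 8 of them reached it (1.17%). Of the 11, all but Il1b, Cxcl2 and L1cam are genes the study selected on these cultures, and of the 8, all but Traf6 and Cxcl2. Between the doses, 62 of the 92 had a log2 fold change above 0, with a median of 0.08, where 47.6% of all genes did with a median of -0.01. The study selected 15 of the 92 on these cultures, so their direction and p-values are no independent evidence. Of the other 77, 48 were above 0, with a median of 0.05. DESeq2 called 0 in this comparison (0.00815% of all genes) and 2, Lcn2 and C3, in high dose vs. untreated (0.0244%). With 4 factors, Il1b, Tlr2, Sod2, Cxcl1, Ccl2, Lcn2, C3 and Cfb were called in high dose vs. low dose, beside 0.921% of all genes, each higher at the high dose. All of these but Il1b are genes the study selected on these cultures.

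Among 22 ligands and receptors, 16 were tested, and Tnf, the ligand that gave several of these genes their names, had too few counts, with 34 at most in a culture. Il1b, encoding a cytokine that activates NF-κB, had a log2 fold change of 1.84 (SE 0.93) in high dose vs. low dose and a level of 0.63 CPM on average at the low dose. Il1a had 0.98 (SE 0.89). The receptor gene Il1r1 had -0.80 (SE 0.67). It was at 36.1 CPM in culture G and averaged 1.68 CPM in the other untreated cultures. Values for this list were above 0 in 9 of 16 genes, with a median of 0.04.

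Adaptors and kinases carry the signal from the receptors to the inhibitor proteins, and 22 of 26 were tested, with a median log2 fold change of 0.04. Traf6, a ubiquitin ligase downstream of interleukin-1 and Toll-like receptors, and Birc2, the neighbor and paralog of Birc3, were the ones whose high dose cultures were each above the low dose cultures. These 2 of the 22 compare with 0.668% of all genes tested. Traf6 was at 13.9 to 16.8 CPM against 9.39 to 13.8 CPM (log2 fold change 0.37, SE 0.14). Birc2 was at 112.0 to 115.2 CPM against 79.7 to 111.4 CPM (log2 fold change 0.29, SE 0.15). Next in size came Ikbkg, the regulatory subunit of the kinase complex, with 0.27 (SE 0.22).

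Of the NF-κB subunits, Nfkb1 had a log2 fold change of 0.21 (SE 0.10) and Rela 0.08 (SE 0.07), and Rel is not listed in the table under this name. Inhibitors other than Nfkbia had a median of 0.13 over 12 genes tested, with 8 above 0. Zc3h12a, a ribonuclease that cleaves inflammatory transcripts, had 0.39 (SE 0.20), Cyld, a deubiquitinase, 0.21 (SE 0.11), and Nfkbie, a further inhibitor of the IκB family, 0.19 (SE 0.18). These 3 were among 5 of the 12 that were higher at the high dose in each letter set, beside 11.7% of all genes. Another 2 of the 12 were lower in each set, and none passed the test.

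The highest value of the lists between the doses was that of Lcn2, among the other targets, ahead of Il1b of the ligands and receptors. In the list of other targets, 10 of the 26 tested genes are ones the study selected on these cultures, so their direction is no independent evidence. Lcn2, an iron carrier made by reactive astrocytes, had a log2 fold change of 1.96 (SE 0.54) in high dose vs. low dose, Cxcl2, a neutrophil attractant, 1.80 (SE 0.68), and Cxcl1, another, 1.56 (SE 0.55). Over the 16 genes the study did not select, 11 were above 0 with a median of 0.07. Sod2, a mitochondrial antioxidant enzyme that the study did select, was at 218 ± 74.3 CPM (SD, n = 4) at the low dose and 355 ± 82.9 CPM at the high dose.

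Of 14 tested genes for other adhesion molecules and the leukocyte integrins that bind Vcam1 and Icam1, 0 were called and 10 were above 0 in high dose vs. low dose, with a median of 0.09. Itgal had 0.40 (SE 0.83), the neural adhesion gene L1cam 0.37 (SE 0.20) and Itga4 0.33 (SE 0.66). Icam4 and Icam5, which follow Icam1 on the chromosome in the RefSeq annotation, had -0.01 (SE 0.35) and 0.29 (SE 0.44). The endothelial selectins Sele and Selp had 11 and 8 counts at most in a culture and could not be tested.

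**Figure D5:**
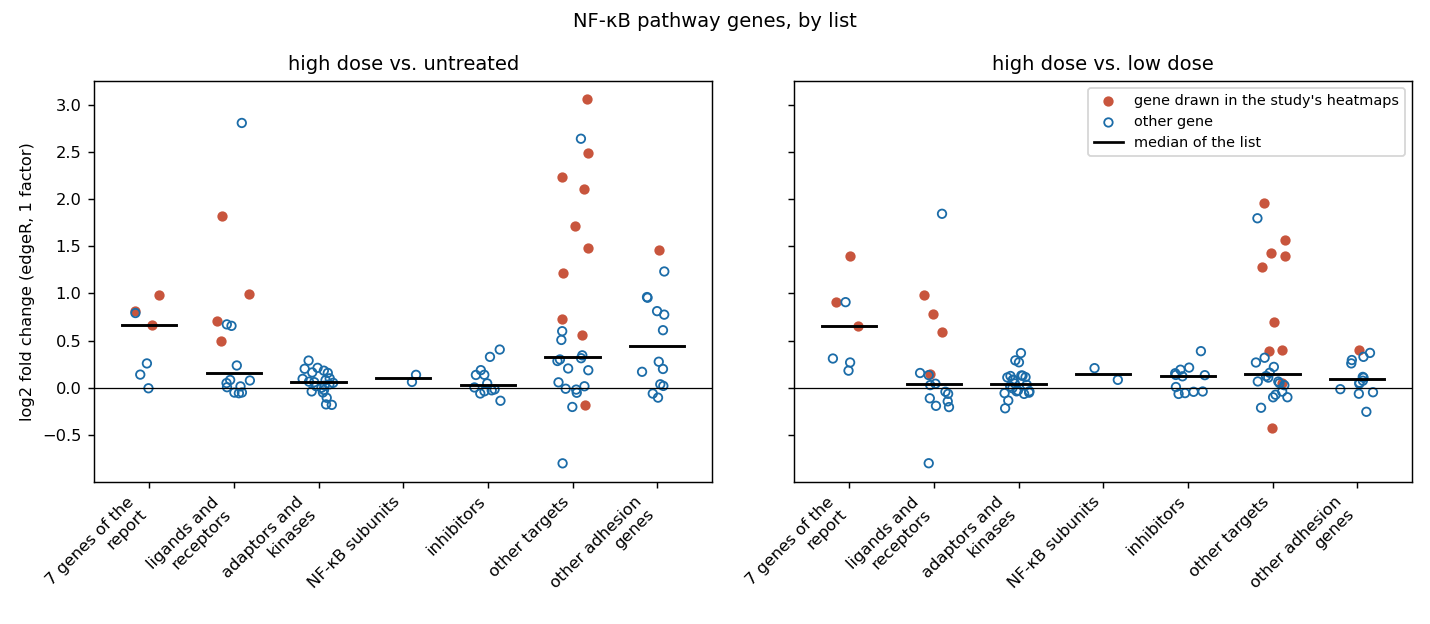
Log2 fold changes from the edgeR model with 1 factor are plotted for the genes of each list, for high dose vs. untreated (left) and high dose vs. low dose (right), with filled circles for genes the study selected on these cultures and a bar at each list's median. Medians of the 6 other lists in high dose vs. low dose lie between 0.04 and 0.15, below the 0.65 of the 7 genes. The highest value in that comparison is that of Lcn2, of the other targets, followed by Il1b, of the ligands and receptors.

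The genes most like Vcam1 and Birc3 were sought by Pearson's correlation of log2(CPM + 1) over the 12 cultures after the mean of each letter set was taken out. These are the highest of 12271 values and are given as a description, without a p. For Vcam1 the leading gene was Nfkbia, with r = 0.99 (Spearman's rho 0.99) and r = 0.98 without G. It was followed by Psmb9, a subunit of the immunoproteasome (0.98), Kif16b, a kinesin (0.98), Tnfaip2 (0.98) and Ncf1, a subunit of the phagocyte oxidase (0.98). For Birc3 the 5 were Nfkbia (0.98), Kif16b (0.98), Tnfaip2 (0.97), Birc2 (0.97) and Sod2 (0.97), and without G their r was 0.95 to 0.98. Kif16b moved over a narrow range, with means of 14.9 CPM at the low dose and 18.6 CPM at the high dose.

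Among the 7 genes themselves, leaving out G and without removing the set means, Nfkbia and Tnfaip2 were the closest pair over the 11 cultures (r = 0.95, rho 0.93). Icam1 and Nfkb2 had r = 0.88 (rho 0.74). Vcam1 correlated with Nfkbia at 0.83 (rho 0.92) and with Icam1 at 0.20 (rho 0.47). The cultures share letter sets, and these values are given without a p.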

How the data were processed

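RNA was measured in 12 co-cultures, 4 per condition. Per the labels and the study's methods, poly(A)-enriched libraries were aligned by STAR (rat build rn6), and featureCounts gave the reads per gene. The strand setting and annotation are not given in the sources used here. The deposited values are raw read counts, to which the authors applied no normalization.

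Counts were scaled by TMM and filtered by filterByExpr of edgeR 4.0.16 (R 4.3.3), which kept 12271 genes. The study names RUVseq and edgeR without the procedure or number of factors. Here 1 factor was estimated by the RUVs procedure, rewritten in R, from the replicate cultures with all kept genes as controls. It held 41.0% of the variation within conditions. Condition and factor were fitted with the quasi-likelihood test, and p-values were adjusted by Benjamini-Hochberg over all genes. Calls needed an absolute log2 fold change over 0.5 and an adjusted p below 0.05. Standard errors were derived from the test statistics. The procedure was tested on counts simulated without an unwanted factor or a culture like G. Of 200 genes given a log2 change of 2 up or down, 180 were called, with 7 false calls. Smaller changes, such as those of the 7 genes, were not simulated.

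The members, the lists and the alternatives were chosen with earlier results of these data known. The genes named are the 7 listed members, the list genes whose doses did not overlap, the 3 of each list with the largest absolute change between the doses, and the 5 genes most like Vcam1 and Birc3. Icam4, Icam5, Sod2, Tnf, Sele, Selp and the genes called only in an alternative were added after their values were seen. Symbols were checked against RefSeq (assembly GRCr8) for older names and neighbors only. Promoter and protein sequences were not analysed here.

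Alternatives were no factor, 2 or 4 factors, a block by letter sets with and without culture G, the likelihood ratio test, DESeq2 1.42.0, its size factors in edgeR, no filter, a minimum of 10 counts per culture, a fit of only the 8 cultures concerned, and each culture left out in turn.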

Additional observations from a re-analysis of the deposited data

Results flagged for a closer look

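Among 42 groups of 4 cultures (7 genes and 7 marker scores in 3 conditions), 8 held a culture whose gap to the nearest of the others, as a share of the group's range, was above the 95% critical value of Dixon's test. Chance gives this in about 5% of independent groups. The groups here share cultures, and 7 of the 8 were flagged through culture G. For 6 of the 8 the values were those of genes chosen with these data known, so the count cannot be set against 5%. Untreated culture G was the highest for 6 genes, with a gap of 0.96 of the range for Icam1, 0.95 for Birc3, 0.93 for Tnfaip2, 0.92 for Vcam1, 0.89 for Nfkbia and 0.89 for Nfkb2. The same culture was the lowest for the neuron score, with a gap of 0.84. Low dose culture N was the highest of its dose for the fibroblast and mural score, with a gap of 0.93.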

How the results depend on the processing

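In high dose vs. untreated, where 0 genes were called as reported, 2 factors called 1 gene, 4 factors 39, the likelihood ratio test 2, DESeq2 3 and the replicate block by letter sets without culture G 15. Of the other pathway genes, these settings called 1, 4, 1, 2 and 2. In high dose vs. low dose, 2 factors called 1 gene, 4 factors 113, DESeq2 1 and the block without G 14, of which 1 (2 factors) and 8 (4 factors) were other pathway genes. The block with G called 0 genes in each comparison, and no setting called a gene in low dose vs. untreated. Leaving out each culture in turn called 0 genes throughout. The cause of these shifts was not tested. In high dose vs. untreated, the log2 fold change of Birc3 and Nfkbia kept its sign in all 23 alternatives, while 1 of 23 turned that of Vcam1 and Tnfaip2, 2 that of Nfkb2 and 4 that of Icam1. The count of genes without overlap between high dose and untreated cultures, 0 of 7 with G and 5 without, was looked at after the data were seen, beside 0.359% and 1.17% of all genes, as were the counts for high dose vs. low dose, 4 without B, C or the set of G and 5 without N, beside 1.84% to 2.62% of all genes. In low dose vs. untreated, 5 of 23 turned the sign of Vcam1, 6 that of Nfkbia and 0 that of Birc3. Counts of 9 to 39 per culture limit what can be said of Traf1.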
